A study of Mus musculus with 6 samples.

Results

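The genes described here are the semaphorins, ephrins, netrins and Slits, ligands that steer growing axons, and their receptors. They were measured in neurons sorted by a reporter for the mouse ventromedial hypothalamus (VMH) at postnatal day 10. They were chosen by symbol, as Sema, Plxn, Epha, Ephb, Efna, Efnb, Robo, Slit and Unc5 genes with the netrins, netrin-G genes, Dcc, Neo1, Nrp1 and Nrp2, and 72 of the 21926 genes in the count tables matched. Of these, 35 were ligands and 35 were receptors. The other 2, Unc50 and Unc5cl, matched by their first letters only and are not guidance receptors, so they were counted but set apart. Transcripts were counted in sorted single cells from 3 male and 3 female mice, with a plate of 96 wells for each mouse. All 6 mice carried Ai14f/+;Sf1-Cre, a fluorescent reporter that Cre driven by the Sf1 (Nr5a1) gene switches on, and were 10 days old. The reporter marks cells in which Cre acted, in the cell itself or in an ancestor, and Nr5a1 itself had a count in 156 neurons. No other genotype, age or treatment was measured.

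Axon guidance ligands are secreted or held on a cell's surface, and a growth cone that carries the matching receptor turns toward or away from them. Ephrins bind Eph receptors, semaphorins bind plexins alone or with neuropilins, Slits bind Robo receptors, and netrins bind Dcc, Neo1 and Unc5 receptors. Many of these proteins go on to act at synapses after axons have arrived, and hypothalamic neurons are still forming projections in the weeks after birth.

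Of 576 wells, 530 reached 500 detected genes with mitochondrial transcripts below 25% of counts, and 517 of those met the marker rule for neurons. The neurons numbered 92, 83 and 92 in males 1, 2 and 3 and 78, 86 and 86 in females 1, 2 and 3. Median totals per neuron were 5972 to 7979.5 counts in males and 5536 and 6737.5 counts in females 1 and 3. Female 2 stood apart at 2120 counts per neuron, and leaving it out changed no call of a guidance gene described below. The neuron markers summed to 15061 to 16885 counts per 1000000 counts of the sum (CPM) in males and 13060 to 15526 CPM in females. The VMH markers summed to 783 to 1130 CPM in males and 627 to 1212 CPM in females (genes Nr5a1, Fezf1, Adcyap1, Slc17a6, Sox14, Nkx2-1 and Fezf2). Arcuate nucleus markers, led by Pomc and known from the region next to the VMH, summed to 268 to 957 CPM in males and 25.5 to 1252 CPM in females. They exceeded the VMH markers in male 2 (957 against 783 CPM) and in female 3 (1252 against 1212 CPM). Pomc had a count in 69 neurons, so not all sorted neurons need be of the VMH. Oligodendrocyte lineage markers summed to 38.3 to 60.7 CPM in males and 67.6 to 86.5 CPM in females, without overlap and with Mog at 0. Of 6 microglial markers, 5 (C1qa, C1qb, C1qc, Cx3cr1 and Tmem119) were at 0 in every neuron. The same 96 well names were used for every mouse, and 0 pairs of wells held identical counts.

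The guidance genes were sparse. Together the 72 genes held 4461 counts, 0.135% of all counts in the neurons, and the median neuron had a count of 6 of them. Of these counts, 391 were of Unc50 and 1 of Unc5cl, matched by letters only. After each neuron was thinned to 2184 counts, so that depth was equal, the median was 3 genes. A single neuron held at most 29 of the genes, and 15 neurons held none. Of the 72 genes, 13 had at least 100 counts in all, 33 had 10 to 99, 23 had 1 to 9, and Efna1, Plxnb3 and Robo4 had none in any kept well. The 13 kept wells that were not called neurons had a median total of 904 counts, so they are too shallow for a firm background, and Efnb3, Ntng1, Sema5a and Sema6b had 0 counts in them.

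Among the ligands, Efnb3 was the most counted, with 611 counts in 292 neurons. Efnb3 encodes ephrin-B3, a membrane-spanning ephrin known as a midline barrier to corticospinal axons. Its level was 133, 197 and 309.8 CPM in males 1, 2 and 3 and 189.9, 75.7 and 112 CPM in females 1, 2 and 3. Male 3 was highest and female 2 lowest, and the sexes overlapped. Efna3, an ephrin anchored to the membrane by a lipid, had 200 counts and 58.7 ± 13.7 CPM (SD, n = 6 mice). Ntng1 encodes netrin-G1, a membrane-anchored relative of the netrins that binds the synaptic protein Lrrc4c rather than Dcc. It had 277 counts in 184 neurons, at 93.3, 78.6 and 81.3 CPM in males and 71.8, 146 and 69.3 CPM in females, and female 2 was the only mouse above 100.

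The other ligands with at least 100 counts were 4 membrane-spanning semaphorins. Sema5a, which in mice repels axons and neurites in the retina through plexin-A receptors, had 160 counts in 110 neurons. It was at 46.0, 41.2 and 43.9 CPM in males and 62.5, 32.4 and 59.1 CPM in females. The males lay within the range of the females. Sema6b, a plexin-A ligand, was at 38.3 ± 15.96 CPM, Sema4a, best known in immune cells and the retina, at 41.4 ± 20.5 CPM, and Sema4f, which has been found at glutamatergic synapses, at 35.8 ± 21.0 CPM (SD, n = 6 mice). The Slits were lower, with 66 counts of Slit2, 62 of Slit1 and 20 of Slit3. Secreted class 3 semaphorins were at most 29 counts (Sema3a). The netrin genes Ntn1 and Ntn4 had 1 count each, so netrin counts in these neurons were almost all of Ntng1.

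Among the receptors, the most counted were Epha5 (213 counts), Plxna1 (204), Epha4 (127) and Neo1 (125). Epha5, a receptor for the lipid-anchored ephrins, was at 47.3, 56.2 and 74.9 CPM in males and 60.2, 43.3 and 91.3 CPM in females. Plxna1, the signalling receptor that neuropilins pair with for class 3 semaphorins, was at 63.9, 97.4 and 56.8 CPM in males and 69.5, 32.4 and 37.2 CPM in females. The sexes overlapped in both genes. Epha4, which unlike most EphA receptors also binds ephrin-B3, was at 39.0 ± 8.02 CPM, and the netrin and Rgm receptor Neo1 at 36.3 ± 11.7 CPM (SD, n = 6 mice). Dcc, the main attractive netrin receptor, had 9 counts in all. Neuropilins had 85 counts of Nrp2 and 34 of Nrp1, and Robo receptors 68 of Robo2, 20 of Robo1 and 3 of Robo3.

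Per kilobase of annotated exon, the ligand order was Efnb3 (53.2 CPM per kb), Efna3 (24.1), Ntng1 (10.9), Sema6b (9.64) and Sema4a (7.66). Sema5a, with long annotated exons, stood at 2.54 CPM per kb. The receptor order was Plxna1 (6.57 CPM per kb), Unc5a (6.16), Ephb1 (5.29) and Epha4 (4.84), with Epha5 at 3.71. The 6 highest guidance genes were thus ligands, the sixth being Sema4f at 6.78. From Ntng1 down, neighbours in either order differed by less than their spread over mice. Unc50, which encodes a Golgi protein and was matched by letters only, was at 78.4 CPM per kb. Whether counts spread along the transcript is not stated in the sources used here, and the order per kilobase holds only if they do.

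**Figure D1:**
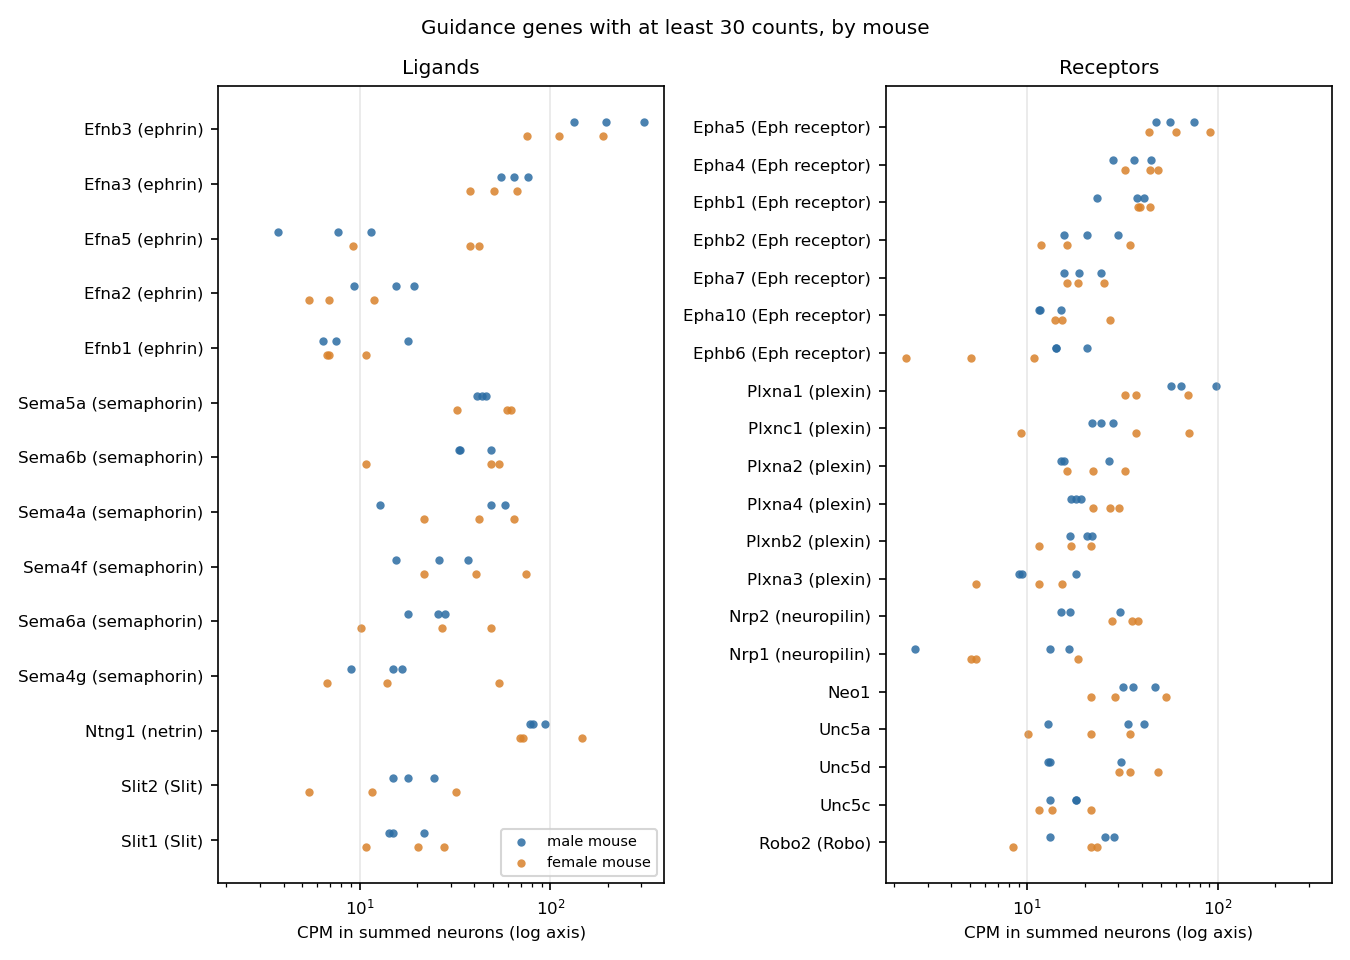
Level of the 14 ligands and 20 receptors with at least 30 counts, in CPM of the summed neurons on a log axis, with 1 point per male (blue) and female (orange) mouse. Efnb3 ranged from 75.7 to 309.8 CPM, and lay above every other ligand in 5 of 6 mice, all but female 2, where Ntng1 was higher.

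By family, any semaphorin was detected in 73.9% of neurons and any ephrin in 72.3%. The receptor families followed, with an Eph receptor in 65.0%, a plexin in 59.4%, a Dcc, Neo1 or Unc5 receptor in 45.8%, a neuropilin in 18.2% and a Robo receptor in 14.7% of neurons. A netrin or netrin-G gene was detected in 35.6% and a Slit in 21.9%. These shares rise with depth and with the number of genes in a family. At 2184 counts per neuron, an ephrin was detected in 47.6% ± 9.27 of male and 38.8% ± 5.09 of female neurons, and a semaphorin in 40.9% ± 11.3 of male and 50.8% ± 8.69 of female neurons (SD, n = 3 mice each). An Eph receptor was detected in 34.1, 34.9 and 35.6% of thinned neurons in males and 31.6, 28.2 and 32.6% in females. Female 2 gave 39 of the thinned neurons, and no test was run on these shares. Thinning kept 465 neurons and left out 47 of the 86 neurons of female 2.

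**Figure D2:**
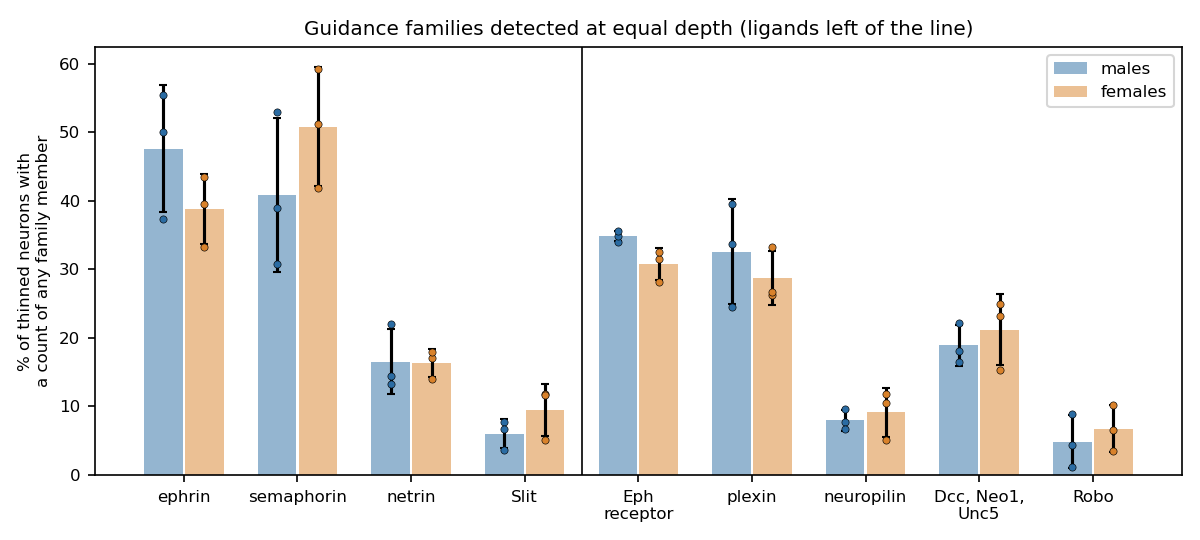
Percent of neurons, thinned to 2184 counts, with a count of any gene of each family, as mean (bars), SD (lines) and single mice (points) for 3 males (blue) and 3 females (orange). Semaphorins and ephrins were detected most often in both sexes, and Slits, neuropilins and Robo receptors least often.

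Neurons with a count of a marker gene were then set against neurons without one, within each mouse, to ask whether guidance genes go with known VMH neuron markers. The markers were Tac1 (the substance P precursor gene), Rprm (a cell cycle inhibitor gene used as a VMH marker), Pdyn (the dynorphin precursor gene), and the transcription factor genes Fezf1, Bcl11b and Sox14. They were detected in 193, 194, 223, 211, 55 and 171 of the 517 neurons, in that order. Groups for different markers share neurons, so the 6 comparisons are not independent: 87 of the 171 Sox14-detected neurons also had Fezf1. A neuron without a count may still express the marker. Detected neurons were deeper for Tac1 (median 7156 counts, against 5207 in undetected neurons), Rprm (6731.5 against 5438), Pdyn (7198 against 5118.5), Fezf1 (7320 against 5118.5) and Sox14 (6191 against 5734), and shallower for Bcl11b (5094 against 6105). Counts were summed per mouse and group and tested with edgeR's quasi-likelihood test with the mouse as a block and Benjamini-Hochberg adjustment over all genes. Fold changes are log2, detected over undetected. Counts of guidance genes tested include Unc50, which was tested in every comparison.

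Across the 6 markers, 1 guidance gene passed an adjusted p of 0.05, Sema5a in Sox14-detected neurons. Of the 72 genes, 19 had enough counts to be tested by Sox14 and 1 was called, against 0.782% of all 5625 genes tested (44 called, 10 higher and 34 lower). Unadjusted p was under 0.05 for 4 of the 19 in edgeR, against 6.24% of all genes, and for 3 of the 19 in DESeq2, against 2.92%. Of the 19, 13 were higher and 6 lower. DESeq2 called 0 guidance genes at an adjusted p of 0.05 here and in every other comparison, with and without the filter on low counts. Its unadjusted counts are given for the filtered genes. Without the filter, DESeq2 gave no adjusted p for 41 of 69 guidance genes by Tac1, 62 by Pdyn, 39 by Fezf1 and 34 by Bcl11b. Those genes could not be called there. The median log2 fold change was 0.08 for the 19 genes and -0.02 for all genes.

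Sema5a (GRCm38/mm10 chromosome 15, 32244810 to 32696341, plus strand) was at 125, 43.6 and 41.7 CPM in Sox14-detected neurons of males 1, 2 and 3 and 95.2, 47.2 and 100.3 CPM in those of females 1, 2 and 3. In Sox14-undetected neurons it was at 17.4, 39.4 and 45.3 CPM in males and 41.7, 30.5 and 34.9 CPM in females. It was higher in detected neurons of 5 of 6 mice, by most in male 1 and by little in male 2, and lower in male 3. Across mice the groups overlapped. The log2 fold change was 1.12 (SE 0.253, edgeR adjusted p = 0.00213), from 88 counts in detected and 72 in undetected neurons. At equal depth, 17.3% of Sox14-detected and 8.72% of undetected neurons had a Sema5a count. For every equal-depth share by marker, detection was taken anew from the thinned counts and neurons were pooled over mice. These groups therefore differ from the groups that were tested. The call was lost without male 1 (log2 fold change 0.68, edgeR adjusted p = 0.714) and without female 3 (1.02, edgeR adjusted p = 0.0985). It was also lost where 2 Sox14 counts were required (1.19, edgeR adjusted p = 0.294), with DESeq2 and without the block, as the closing section gives.

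A single neuron of male 1 held 10 Sema5a counts, with 4 counts of Sox14 among its total of 13897. It had 0 counts of Fezf1 and 2 of Bcl11b, so it also enters the male 1 values given below by those genes. Without that neuron the log2 fold change by Sox14 was 0.95 and the edgeR adjusted p 0.0371. Sox14-detected neurons held Slc17a6, the glutamate transporter gene of VMH neurons, in 89.5% of cases and undetected neurons in 73.4%. GABA neuron markers (Gad1, Gad2 and Slc32a1) summed to 4.36 to 47.2 CPM in Sox14-detected and 36.6 to 129 CPM in undetected neurons. Arcuate markers summed to 0 to 1249 CPM in detected neurons, with Agrp at 0, and to 19.0 to 1673 CPM in undetected neurons. Among Slc17a6-detected neurons only, the log2 fold change of Sema5a was 1.23 (edgeR adjusted p = 0.00218). Both restrictions were chosen after seeing the data.

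The 300 bases around the annotated Sema5a start (RefSeq, GRCm38.p6, chr15:32244563-32244862, plus strand) are shown because Sema5a is the gene that was called by a transcription factor marker. Capitals mark GC boxes, searched as GGGCGG on both strands with overlaps allowed.
Sema5a: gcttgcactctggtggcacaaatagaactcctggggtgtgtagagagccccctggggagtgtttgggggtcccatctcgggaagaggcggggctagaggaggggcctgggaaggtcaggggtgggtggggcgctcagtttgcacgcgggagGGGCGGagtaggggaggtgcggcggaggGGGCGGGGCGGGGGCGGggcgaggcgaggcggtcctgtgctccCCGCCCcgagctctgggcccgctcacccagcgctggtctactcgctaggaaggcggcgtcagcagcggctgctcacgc
The stretch held 5 GC boxes, a motif found in 35.7% of 32851 promoters of the same length, and 23 CpG dinucleotides against a median of 7. Its GC content was 71.3%. The SOX core letters ACAAT, found on either strand in 31.0% of promoters, were not in this window. No other form of a SOX motif was searched, and whether Sox14 acts on Sema5a was not tested.

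The other genes with an unadjusted p under 0.05 by Sox14, Ntng1, Sema6b and Unc5d, were higher in detected neurons and did not pass. Ntng1 was at 129.9, 95.96 and 103 CPM in Sox14-detected neurons of males and 113, 94.4 and 91.2 CPM in those of females. In undetected neurons it was at 80.1, 65.6 and 66.9 CPM in males and 45.5, 153 and 56.4 CPM in females. It was higher in detected neurons of 5 of 6 mice, and female 2 went the other way. The log2 fold change was 0.61 (SE 0.197, edgeR adjusted p = 0.168), and 0.72 without female 2 (edgeR adjusted p = 0.0636). Sema6b was higher in 5 of 6 mice (0.79, SE 0.278, edgeR adjusted p = 0.298). At equal depth, with Sox14 detection taken after thinning, it had a count in 9.33% of detected and 9.23% of undetected neurons. The Unc5d receptor gene, whose protein binds netrins and Flrt proteins, had a log2 fold change of 0.74 (edgeR adjusted p = 0.795).

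**Figure D3:**
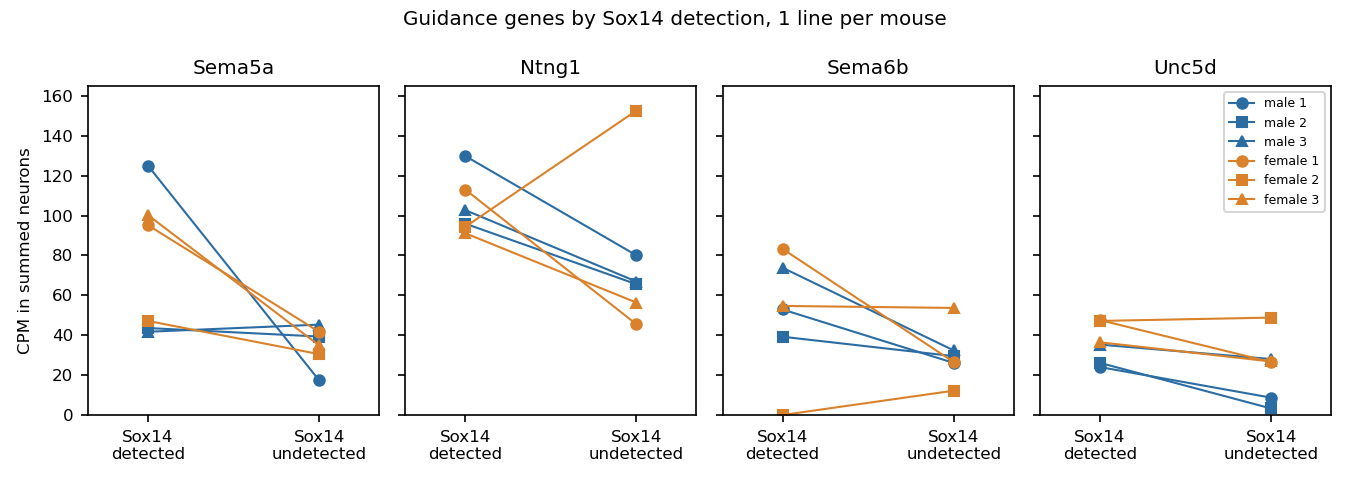
Level of Sema5a, Ntng1, Sema6b and Unc5d in Sox14-detected (left) and Sox14-undetected (right) neurons, in CPM of the summed neurons, with 1 line per mouse (males blue, females orange). Sema5a and Ntng1 were each higher in detected neurons of 5 of 6 mice, and male 1 has the steepest Sema5a line.

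By Fezf1, a zinc finger gene needed for VMH development, 20 guidance genes were tested and 0 were called, against 2.26% of 6054 genes. Unadjusted p was under 0.05 for 1 of them in edgeR, against 10.3% of all genes, and for 1 in DESeq2, against 4.66%. Medians of the log2 fold change were -0.11 for guidance genes and -0.01 for all genes. Sema5a had the smallest p, with a sign opposite to that for Sox14. It was at 20.7, 14.3 and 40.4 CPM in Fezf1-detected neurons of males and 67.6, 23.8 and 47.3 CPM in those of females. In Fezf1-undetected neurons it was at 70.9, 58.5 and 48.5 CPM in males and 57.9, 34.97 and 75.0 CPM in females. It was lower in detected neurons of 5 of 6 mice, all but female 1 (log2 fold change -0.74, SE 0.256, edgeR adjusted p = 0.143). Without female 1 it passed, at -0.96 (edgeR adjusted p = 0.0494). Arcuate markers summed to 0 to 47.7 CPM in Fezf1-detected neurons, with Tbx3 at 0, and to 26.7 to 2882 CPM in undetected neurons. GABA neuron markers summed to 0 to 50.2 CPM in detected neurons, with Slc32a1 at 0, and to 49.0 to 146 CPM in undetected neurons. The part of these cells in the Fezf1 values was not tested. Unc5d (-0.73, SE 0.371, edgeR adjusted p = 0.487) and Slit2 (0.87, SE 0.439, edgeR adjusted p = 0.487) did not pass.

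Neurons were also divided by both genes, as a description. Sema5a was at 102 ± 76.8 CPM in the 84 neurons with Sox14 and without Fezf1 (SD, n = 6 mice) and at 60.9 ± 42.7 CPM in the 87 neurons with both (SD, n = 5 mice, since female 2 had none). It was at 22.2 ± 14.7 CPM in the 124 neurons with Fezf1 and without Sox14, and at 42.7 ± 13.6 CPM in the 222 neurons with neither (SD, n = 6 mice). The highest single value was 250.2 CPM, in male 1 neurons with Sox14 and without Fezf1. The other 5 mice lay between 47.2 and 115 CPM there. The male 1 neuron with 10 Sema5a counts, which had 0 Fezf1 counts, is part of that male 1 value.

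By Tac1, 24 guidance genes were tested and 0 were called, against 0.758% of 5939 genes. In edgeR 1 of them had an unadjusted p under 0.05, against 7.95% of all genes, and 0 in DESeq2, against 2.90%. Guidance genes had a median log2 fold change of 0.05, against -0.01 for all genes. Slit2, a secreted repellent for axons with Robo receptors, was at 30.3, 17.9 and 44.9 CPM in Tac1-detected neurons of males and 0, 0 and 52.4 CPM in those of females. In undetected neurons it was at 8.85, 12.9 and 12.4 CPM in males and 22.7, 7.32 and 7.49 CPM in females. It was higher in detected neurons of 4 of 6 mice, and females 1 and 2 had no count there. The log2 fold change was 1.24 (SE 0.448, edgeR adjusted p = 0.301), and without female 1 it passed, at 1.68 (edgeR adjusted p = 0.0272). At equal depth, with Tac1 detection taken after thinning, 2.94% of Tac1-detected and 2.13% of undetected neurons had a Slit2 count. Sema4a (0.48, SE 0.259, edgeR adjusted p = 0.674) and Plxnc1, the Sema7a receptor gene (-0.52, SE 0.351, edgeR adjusted p = 0.775), did not pass.

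By Pdyn, 19 guidance genes were tested and 0 were called, against 1.54% of 5594 genes. Unadjusted p was under 0.05 for 0 of them in edgeR, against 9.85% of all genes, and for 0 in DESeq2, against 4.92%. Guidance genes had a median log2 fold change of -0.08, against -0.01 for all genes. Ntng1 was at 80.5, 82.8 and 69.7 CPM in Pdyn-detected neurons of males and 46.0, 139.8 and 69.8 CPM in those of females. In undetected neurons it was at 110.5, 74.8 and 103 CPM in males and 104, 147 and 68.9 CPM in females. The value was lower in detected neurons of 4 of 6 mice (log2 fold change -0.37, SE 0.188, edgeR adjusted p = 0.500). Sema6b (-0.47, SE 0.264, edgeR adjusted p = 0.596) and Efnb3 (0.21, SE 0.125, edgeR adjusted p = 0.632) did not pass.

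By Rprm, 22 guidance genes were tested and 0 were called, against 0.0809% of 6181 genes. In edgeR 0 had an unadjusted p under 0.05, against 5.52% of all genes, and 0 in DESeq2, against 1.41%. Medians of the log2 fold change were 0.06 for guidance genes and 0.00 for all genes. The smallest p belonged to Unc5d, at 19.98, 22.3 and 26.3 CPM in Rprm-detected neurons of males and 75.4, 58.0 and 32.3 CPM in those of females. In undetected neurons it was at 8.30, 6.45 and 35.5 CPM in males and 14.0, 43.1 and 29.1 CPM in females. It was higher in detected neurons of 5 of 6 mice, all but male 3 (log2 fold change 0.71, SE 0.374, edgeR adjusted p = 0.918). Ephb1, a receptor of retinal axons that turn back at the optic chiasm, was at 0.60 (SE 0.313, edgeR adjusted p = 0.918) and Efnb3 at 0.26 (SE 0.140, edgeR adjusted p = 0.918).

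By Bcl11b, 7 guidance genes had enough counts, with 7 to 15 marker-detected neurons per mouse. None was called (0 of 7, against 2.06% of 3537 genes). Unadjusted p was under 0.05 for 0 of the 7 in edgeR, against 10.0% of all genes, and for 0 in DESeq2, against 6.42%. The median log2 fold change was 0.08 for guidance genes and -0.01 for all genes. Plxna1 was at 106, 121 and 74.4 CPM in Bcl11b-detected neurons of males and 87.2, 136 and 41.7 CPM in those of females. In undetected neurons it was at 60.6, 94.9 and 55.5 CPM in males and 65.4, 23.5 and 36.8 CPM in females. All 6 mice were higher in detected neurons (log2 fold change 0.53, SE 0.349, edgeR adjusted p = 0.683), on 27 counts. Sema5a was at 0.60 (SE 0.446, edgeR adjusted p = 0.747) although 4 of 6 mice were lower, and male 1 was at 211 CPM in detected neurons. The male 1 neuron with 10 Sema5a counts was among its 9 Bcl11b-detected neurons. The Bcl11b fit was not rerun without that neuron. Efnb3 was at -0.21 (SE 0.228, edgeR adjusted p = 0.863).

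**Figure D4:**
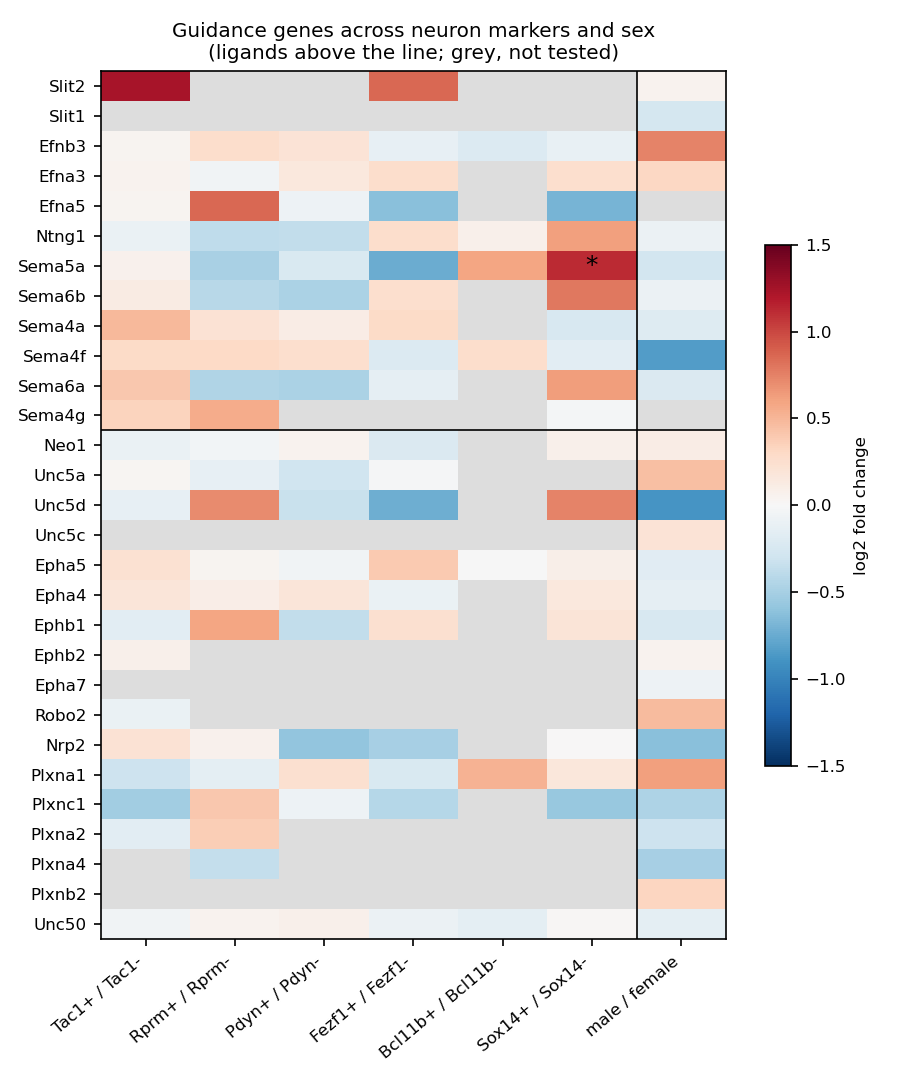
Log2 fold change of the 29 guidance genes tested in at least 1 comparison, by marker (detected over undetected neurons, 6 columns) and by sex (male over female, last column), with grey where a gene had too few counts. The star marks Sema5a with Sox14 (1.12), which passed the test, and Unc50, in the last row, was matched by letters only.

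Esr1, the estrogen receptor alpha gene, was detected in 25 neurons and Gad1 in 35, too few in some mice for a test. The counts of the 13 genes with at least 100 counts, Unc50 among them, were set against the rate in undetected neurons of the same mice. Neurons were pooled over mice, and the exact 95% Poisson intervals cover counting error only. In Esr1-detected neurons, 11 of 13 lay with that rate inside the interval. The exceptions were Ntng1, with 4 counts against 13.5 at the rate of undetected neurons (interval 1.09 to 10.2), and Plxna1, with 14 against 7.59 (interval 7.65 to 23.5). In Gad1-detected neurons, 12 of 13 lay so, and Plxna1 had 7 counts against 14.45 (interval 2.81 to 14.42). By both markers the Plxna1 rate lay only just outside the interval. The share of all genes outside such intervals was not computed, so these values are a description.

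A list of 60 other pathway genes, of adhesion partners and of the cytoplasmic proteins that carry guidance signals to the cytoskeleton, was tested in the same fits. Of these, 36 were tested by Tac1, 38 by Rprm, 36 by Pdyn, 39 by Fezf1, 26 by Bcl11b and 37 by Sox14. Of the 36 tested by Pdyn, 1 was called, Chn1, against 1.54% of all genes, and 1 of 36 is near that background. Of those tested by Tac1, Rprm, Fezf1, Bcl11b and Sox14, 0 were called in each. In that order, 2, 4, 6, 3 and 2 of them had an unadjusted p under 0.05 in edgeR. The shares over all genes were 7.95%, 5.52%, 10.3%, 10.0% and 6.24%. By Pdyn, 8 of the 36 had an unadjusted p under 0.05 in edgeR, against 9.85% of all genes. Chn1 encodes alpha-chimaerin, a Rac inactivator that acts downstream of EphA4 in spinal axons. It was at 351, 276 and 436 CPM in Pdyn-detected neurons of males and 509.9, 349.5 and 513 CPM in those of females. In undetected neurons it was at 257, 242 and 275 CPM in males and 462, 186 and 276 CPM in females. It was higher in detected neurons of 6 of 6 mice, with overlap across mice (log2 fold change 0.51, SE 0.107, edgeR adjusted p = 0.00205). At equal depth, with Pdyn detection taken after thinning, 65.7% of Pdyn-detected and 44.5% of undetected neurons had a count. The call was lost with DESeq2 (0.50, DESeq2 adjusted p = 0.0769, and on the filtered genes 0.51, DESeq2 adjusted p = 0.057), without the mouse block (0.52, edgeR adjusted p = 1.00) and without female 3 (0.41, edgeR adjusted p = 0.0559). Epha4, its upstream partner, did not pass in any comparison in which it was tested.

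Between males and females, 27 guidance genes were tested in the summed neurons of each mouse and 0 were called by edgeR, against 0% of 6771 genes. Unadjusted p was under 0.05 for 0 of the 27 in edgeR, against 2.44% of all genes, and for 0 in DESeq2, against 1.24%. The median log2 fold change, male over female, was -0.14 for guidance genes and -0.03 for all genes. Of the 40 other pathway genes tested, 0 were called and 0 had an unadjusted p under 0.05 in edgeR. Levels did not overlap between the sexes for 1 gene of the 27, against 8.52% of the 6771 genes, so the count for guidance genes is no higher than for all genes. That gene, the plexin gene Plxna4, was at 19.2, 16.8 and 18.1 CPM in males and 30.1, 27.0 and 22.0 CPM in females (log2 fold change -0.50, SE 0.386, edgeR adjusted p = 0.999).

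Unc5d had the smallest p of the sex comparison, at 12.8, 13.1 and 31.0 CPM in males and 34.7, 48.7 and 30.4 CPM in females. Males 1 and 2 were lowest, and male 3 lay within the female range (log2 fold change -0.89, SE 0.459, edgeR adjusted p = 0.999). Efnb3, with the values by mouse given above, had a log2 fold change of 0.74 (SE 0.386, edgeR adjusted p = 0.999). It was detected in 71.2% ± 16.3 of male and 41.4% ± 24.6 of female neurons (SD, n = 3 each), with a two-sided exact permutation p of 0.2. At equal depth the shares were 38.5% ± 12.4 and 25.5% ± 8.19, in males and females (exact permutation p = 0.3). Sema4f was at 37.1, 26.2 and 15.5 CPM in males and 74.1, 21.6 and 40.6 CPM in females (log2 fold change -0.84, SE 0.468, edgeR adjusted p = 0.999). The smallest p that this exact test can give with 3 mice per sex is 0.1, above the threshold of 0.05. Oligodendrocyte lineage markers were lower in the 3 males than in the 3 females, and vessel markers summed to 3.87 to 7.49 CPM in males and 10.1 to 11.6 CPM in females. The part of these in the values by sex was not tested.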

How the data were processed

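Per the labels' protocols, papain-dissociated cells were sorted and their libraries built with BD's Precise kit for whole transcriptomes. Each deposited table held raw counts, 1 row per gene and 1 column per well. HTSeq and mm10 are named in the submitters' processing notes. The aligner, versions, strand of counting and whether molecules or reads were counted are not stated there. Genes that overlap or share sequence are uncertain for that reason.

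The guidance genes and lists were chosen with earlier results of these data known. A neuron had counts of at least 3 neuron markers, more than of glial, vessel and ependymal markers. No doublet caller was run. Counts were summed per mouse, or per mouse and marker detection (at least 1 count), and tested with edgeR 4.0.16 in R 4.3.3 (quasi-likelihood, TMM, filterByExpr, Benjamini-Hochberg threshold 0.05 over all genes). Mouse was a block in marker comparisons, which needed 5 neurons on each side in every mouse. The marker itself was left out. Each SE of a log2 fold change was the absolute fold change divided by the square root of the quasi-likelihood F statistic. It is thus derived from the test and is not a separate estimate of spread. DESeq2 1.42.0 was an alternative, on all genes with a count and, chosen after seeing the data, on the genes past the edgeR filter. Mice are separate by label, and each is 1 plate, so mouse and plate cannot be told apart. Neurons were thinned to 2184 counts, the 10th percentile, and marker detection among thinned neurons was taken from the thinned counts. Named were guidance genes that passed, filled up to 3 per comparison by the smallest p, and the 4 most counted ligands and receptors. Others were named after their values were seen. Fits by Sox14 and by sex were tried on simulated counts. In these, mice differed in depth but not in expression, so the mouse block was not put to the test. Positions are from GENCODE vM21 (GRCm38/mm10). Python 3.11.15 and scipy 1.17.1 were used. Exact tests ran over the 20 assignments of mice to sexes.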

Additional observations from a re-analysis of the deposited data

Results flagged for a closer look

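Per-mouse log2 ratios of marker-detected over undetected neurons (10 CPM added to each) were checked for a mouse far from the other 5, in 18 sets of 6 mice, by Dixon's test at 95%. Chance flags about 1 in 20 separate sets where all 6 values are equally spread. Female 2 had the fewest counts and the sets share neurons, so that rate need not hold here. In 5 sets a mouse stood apart, and each time it was female 2, the shallowest mouse. The ratios of female 2 were 1.45 for Sema6b and 1.45 for Efnb3 by Pdyn, 2.12 for Plxna1 and -3.21 for Efnb3 by Bcl11b, and -0.64 for Ntng1 by Sox14. Only 11 Pdyn-detected, 7 Bcl11b-detected and 10 Sox14-detected neurons of female 2 entered these sums, and the counts were low. In detected and undetected neurons of female 2 they were 1 and 1 for Sema6b and 5 and 9 for Efnb3 by Pdyn, 2 and 4 for Plxna1 and 0 and 14 for Efnb3 by Bcl11b, and 2 and 25 for Ntng1 by Sox14. The size of the Efnb3 value by Bcl11b is therefore set by the 10 CPM added. The part of depth in these ratios was not tested.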

How the results depend on the processing

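Of the 22 named log2 fold changes, 2 were called. Sema5a by Sox14 lost its call in 6 of 14 alternatives and Chn1 by Pdyn in 4 of 13. The other 20 did not pass as reported, and under the alternatives 2 values gained a call and 1 turned direction. By Sox14, 1 guidance gene was called, and 0 with DESeq2, on all or on the filtered genes. The number called was 0 without the mouse block, 0 with 2 counts of Sox14 required, 0 in thinned neurons and 0 to 1 without single mice. The log2 fold change of Sema5a was 1.06 with DESeq2 (adjusted p = 1.00), 1.08 on the filtered genes (DESeq2 adjusted p = 0.778), 1.15 in edgeR without the block (adjusted p = 1.00) and 1.19 with 2 counts (edgeR adjusted p = 0.294). Without single mice it ranged from 0.68 to 1.47, and after thinning it had too few counts to be fitted. By Tac1 and by Fezf1, 0 guidance genes were called, and 0 to 1 without single mice, the call coming without female 1 each time. Efnb3 by Rprm was -0.024 in thinned neurons. The male minus female share was -6.20 to 2.69 points for Unc5d and -11.7 to 2.60 points for Sema4f without single mice, and 0.0652 points for Sema4f at 2 counts. Between the sexes, 0 guidance genes were called with the replicate number as a block. Replicate numbers are not stated to pair the mice. Correlations of same-numbered mice, as deviations from the mean of their sex, were -0.127, -0.0848 and 0.158 over 6771 genes. With 3 mice per sex, these values cannot tell whether the numbers pair mice.

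Counts of all genes called depended on the settings. Without the mouse block they were 0 by Tac1 (45 with it), 0 by Rprm (5), 1 by Pdyn (86), 4 by Fezf1 (137), 3 by Bcl11b (73) and 1 by Sox14 (44). With DESeq2 they were 11, 1, 25, 39, 30 and 3 in that order, and 9, 1, 26, 44, 32 and 4 on the filtered genes, and in thinned neurons 9, 1, 15, 5, 4 and 4. Leaving out the low-count filter gave 21 by Rprm, 306 by Bcl11b and 24 by sex, where the main count was 0 and DESeq2 gave 4. With 2 counts of the marker, there were 8 by Rprm, 10 by Bcl11b and 20 by Sox14, and among Slc17a6-detected neurons 23 by Sox14. Without single mice the counts were 21 to 57 by Tac1, 4 to 11 by Rprm, 43 to 96 by Pdyn, 63 to 146 by Fezf1, 40 to 72 by Bcl11b, 21 to 37 by Sox14 and 0 to 3 by sex. The cause of these differences was not tested. A Gad1 comparison and its alternatives were not run, since 3 mice had under 5 Gad1-detected neurons. No guidance gene of under 10 counts, 26 of the 72 with those at 0, passed the filter. Without it, 69 of the 72 were compared in edgeR, and Sema5a by Sox14 was the 1 called. By Sox14, 40 of all 15147 genes were called in that fit. DESeq2 without the filter had 1 of 69 by sex at an unadjusted p under 0.05, against 0.826% of all genes.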
